A study of Mus musculus with 2 samples.

Results

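The potassium channel genes of mouse colon mesenchyme were taken as all genes with a symbol of the form Kcn plus family letters and a number, with at least 50 UMIs (unique molecular identifiers, 1 per captured transcript) over both libraries. Of 92 genes whose symbol had this form, 42 met the minimum, 50 did not, and 9 of these 50 had no UMI. The genes just inside the minimum were Kcnj13 with 53 UMIs and Kcnip1 with 59, and those just outside were Kcnh1 and Kcnj4 with 43 each and Kcnk4 with 42. By comparison, 15649 of all 32285 genes in the tables had at least 50 UMIs. The cells came from large intestine of adult mice over 8 weeks of age and had been sorted for gp38, which is podoplanin, a fibroblast surface protein, after cells with the leukocyte protein CD45, the epithelial protein EpCAM or the endothelial protein CD31 were set aside. Each group was 1 library of the 10x Genomics 3' v3.1 assay. C57BL/6 mice gave the ff library and Balb/c mice the GF library; the sources do not spell out ff, and germ-free housing is given by the series text and the name GF only. Strain, library and housing therefore cannot be told apart, and how many mice were pooled for each is not stated. With 1 library per group no difference has a replicate check, no test was made, and every interval below covers counting error only.

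Potassium channels let potassium leave the cell along its gradient and so hold the membrane potential near rest or restore it after excitation. In the gut wall, smooth muscle cells, interstitial cells of Cajal (the pacemaker cells) and fibroblast-like interstitial cells that are positive for Pdgfra are coupled electrically, and the last are known for small-conductance calcium-activated channels that open when nerves release purines. Voltage-gated channels respond to depolarization, BK and SK channels to cell calcium, inward rectifiers of the Kir6 type to cell energy state, and tandem-pore channels carry leak current; Kcne, Kcnab, Kcnip and Kcnmb proteins are accessory subunits that modify channels without forming the pore.

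Of the 42 genes, 34 encode channel subunits and 8 accessory subunits. The channel subunits comprised 16 voltage-gated, 8 tandem-pore, 4 inward rectifier, 3 small- or intermediate-conductance calcium-activated and 1 large-conductance calcium-activated subunit, with Kcnt2 and Kcnu1 as the other two. The selectivity filter, the stretch of protein through which potassium passes, is encoded by 5 codons that end in those for glycine, tyrosine or phenylalanine (leucine in some copies), and glycine. A search of the longest annotated coding sequence of each gene in its reading frame found the filter codons once in 26 of 26 channel subunits outside the tandem-pore family, 2 times in 8 of 8 tandem-pore subunits and in 0 of 8 accessory subunits. Among all protein-coding genes, 1.59% held at least 1 match. The sequences below are those of 5 genes that lead levels described next, 27 bases each from GENCODE vM21 transcripts (GRCm38, the assembly of mm10), with the 15 filter bases in capitals. They show which genes carry the filter once and which carry it in tandem; 3' UMIs do not read these sites.
Kcnma1: atgtctACAGTGGGTTATGGGgacgtt
Kcnh2: ctcaccAGCGTGGGCTTTGGCaatgtc
Kcnj8: caagtgACCATTGGGTTTGGAgggaga
Kcnk2, first: atcacaACCATAGGATTTGGAaacatc
Kcnk2, second: ctgacgACCATTGGATTTGGAgactac
Kcnk3, first: atcaccACCATCGGCTATGGTcatgcg
Kcnk3, second: ctcaccACCATCGGCTTCGGCgactat
The Kcnma1 window lies in 1 coding exon at chr14:23528407-23528433 on the minus strand, that of Kcnh2 at chr5:24325549-24325575 on the minus strand and that of Kcnj8 at chr6:142566442-142566468 on the minus strand. The second windows of Kcnk2 (chr1:189256575-189256601, minus strand) and Kcnk3 (chr5:30622196-30622222, plus strand) each lie in 1 coding exon too. The first window of each tandem-pore gene printed crosses an exon junction.

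The ff library held 13704 barcodes with a median of 8685 UMIs and the GF library 16388 with a median of 6147.5. After cell filters and doublet removal 12164 ff and 14299 GF cells remained, and 55 barcodes occurred in both libraries. Cells were assigned to classes by the number of marker genes detected in each cell, and levels are UMIs summed over the class as counts per 1000000 UMIs (CPM), which are not divided by gene length. The classes held, in ff and GF, 213 and 382 smooth muscle-gated cells, 11 and 28 Cajal-like cells, 460 and 379 interstitial fibroblast-like cells and 2211 and 1083 Foxl1-high cells, the subepithelial fibroblasts named in the series title. The other fibroblast-gated cells were 1266 and 966 lamina propria, 547 and 405 submucosal and 1807 and 2822 adventitial cells, and 5285 and 6556 that met no subtype gate. Myh11, the smooth muscle myosin heavy chain, stood at 3070 and 3236 CPM in smooth muscle-gated cells, and Kit at 1781 and 2029 CPM in Cajal-like cells; both are markers that the gates used, so the selection fixes these levels. Smooth muscle-gated cells also held the 7 fibroblast markers at sums of 10394 (ff) and 9584 (GF) CPM. The interstitial gate asks for only 2 of 5 markers (P2ry1, Ptn, Adra1a, Cacna1g, Thbs4), and 311 of 460 cells in ff and 246 of 379 in GF met exactly that number. Lymphocytes that passed the sort, 63 in ff and 1033 in GF, served as the measure of free RNA.

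Together the 42 genes made up 221 (ff) and 228 (GF) CPM over all fibroblast-gated cells. Their sum was larger in smooth muscle-gated cells, at 483 and 507 CPM, in interstitial fibroblast-like cells, at 818 and 846 CPM, and in Cajal-like cells, at 1125 and 1376 CPM. Each class was led by other genes. Kcnn3 gave 51.6% and 57.5% of the sum in interstitial fibroblast-like cells, Kcnk3 69.3% and 72.1% in Cajal-like cells, and Kcnmb1 24.6% and 20.3% in smooth muscle-gated cells. Over the whole tables Kcnk2 (12992 UMIs) and Kcnn3 (10553 UMIs) held 44.5% of the 52945 UMIs of these genes, and 15 genes had fewer than 200 UMIs. In lymphocytes the sum was 130 and 79.4 CPM, and Kcnn4, the intermediate-conductance channel known from T cells, gave most of it in ff (53.7%) and the largest share in GF (37.0%).

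**Figure D1:**
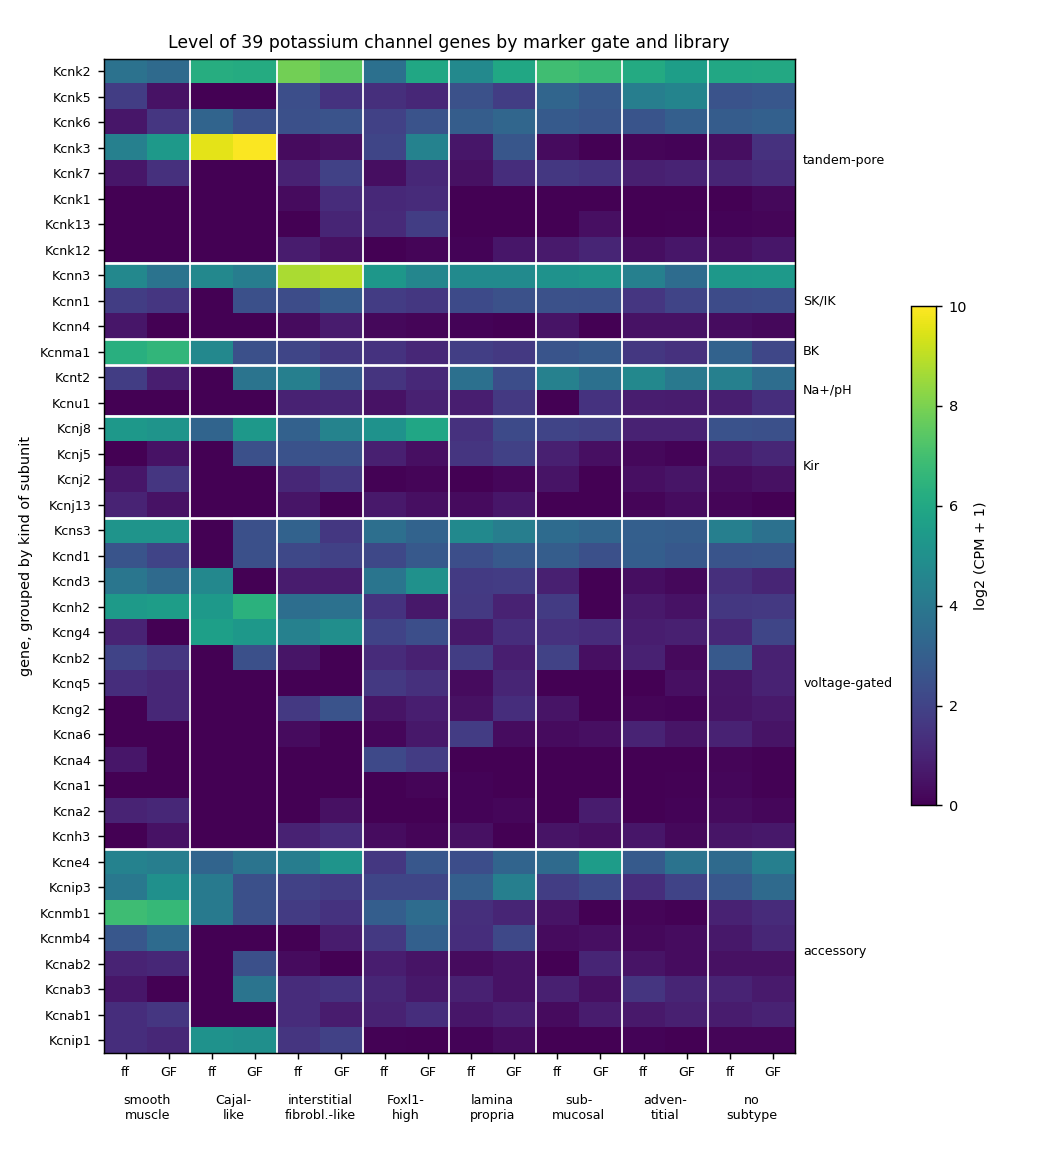
Level of 39 of the 42 genes (rows, by kind of subunit) in the 8 mesenchymal classes of both libraries (columns), as log2 of CPM plus 1; "no subtype" is fibroblast-gated cells outside every subtype gate. Kcnn3 and Kcnk2 are brightest in interstitial fibroblast-like cells, Kcnk3 in Cajal-like cells and Kcnmb1 and Kcnma1 in smooth muscle-gated cells.

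Leaving out the few Cajal-like cells, 27 of the 42 genes were highest in the same one of 7 classes in both libraries (50.8% of all genes measured were), and 15 in different ones. Smooth muscle-gated cells were the highest class for 11 genes (15.8% of all genes), interstitial fibroblast-like cells for 9 (7.64%), Foxl1-high cells for 3, Kcna4, Kcnk13 and Kcnq5 (13.5%), lamina propria cells for 2 with Kcnk6 among them (4.6%), and adventitial cells for 2, Kcnk5 and Kcnt2 (5.85%). Some of these places rest on few UMIs, such as that of Kcna2 in smooth muscle-gated cells on 2 and 3. Kcnq5 had 9.53 (ff, 3 UMIs) and 7.43 (GF, 22 UMIs) CPM in lymphocytes, which are outside these 7 classes. No gene was highest in both libraries in submucosal cells or in fibroblasts without a subtype.

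Smooth muscle-gated cells were compared with all fibroblast-gated cells to find which channels mark the contractile cells. A gene was counted where the ratio, after adding 1 CPM to each level, was at least 2-fold in the same direction in both libraries. Of the 42 genes 10 were higher (4.2% of all genes measured were) and 5 were lower (4.18% of all genes). The higher genes included the BK channel, both Kcnmb accessory subunits among the 42 genes and the voltage-gated subunits Kcnh2, Kcns3 and Kcnd3. Also higher were the leak channel Kcnk3, the inward rectifier Kcnj8 and the calcium-binding accessory subunit Kcnip3. The lower genes were Kcnk2, Kcnk5, Kcnk6, Kcnn3 and Kcnt2. Over the 42 genes the median log2 ratios of ff and GF were 0.05 and 0.17, beside -0.03 and 0.03 over all genes.

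Kcnmb1, the beta subunit that raises the calcium sensitivity of BK channels in smooth muscle (chr11:33963013-33973641), stood at 119 CPM (interval 104 to 135) for ff and 103 CPM (90.6 to 116) for GF in smooth muscle-gated cells. In fibroblast-gated cells it stood at 2.21 and 1.86 CPM, which gives log2 ratios of 5.22 and 5.18. Kcnmb1 was the most abundant potassium channel transcript of the contractile cells. It lies inside Kcnip1 on the opposite strand; the sources do not say whether counting used strand, so reads of the overlap cannot be told apart, and Kcnip1 itself had only 3 UMIs in the smooth muscle-gated cells of each library. The pore subunit Kcnma1 had 78.0 CPM (66.2 to 91.3) in ff and 94.0 CPM (82.4 to 107) in GF, against 4.57 and 2.60 CPM in fibroblast-gated cells, for log2 ratios of 3.83 and 4.72. Kcnmb4, a beta subunit known mainly from brain, was lower in level, at 5.54 and 10.3 CPM against 0.92 and 1.66 CPM. Lymphocytes held Kcnmb4 at 15.9 CPM in ff (5 UMIs) and 4.39 CPM in GF (13 UMIs), and the part of free RNA was not tested.

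After each cell was thinned to 2000 UMIs, a Kcnmb1 UMI was seen in 19.8% of ff and 19.6% of GF smooth muscle-gated cells, and a Kcnma1 UMI in 18.4% and 18.3%; unthinned, the shares were 60.1% and 45.0% for Kcnmb1 and 44.1% and 40.3% for Kcnma1. The median depth of these cells was 8041 UMIs in ff and 5864 in GF. Thinning thus brought the libraries to nearly equal shares. No lymphocyte held a UMI of either gene before thinning, at median depths of 3769 and 2600 UMIs, and 0 counts allow up to 9.53 (ff) and 1.01 (GF) CPM.

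Among voltage-gated subunits, Kcnh2, the ERG channel that sets the resting potential of gut muscle, stood at 43.3 and 46.8 CPM in smooth muscle-gated cells and at 2.17 and 1.67 CPM in fibroblast-gated cells (log2 ratios 3.81 and 4.16). It was many times higher in muscle in each library. Kcns3, a silent subunit that works only beside Kv2 channels, was abundant in both classes, with 34.7 and 34.9 CPM in smooth muscle-gated cells and 15.3 and 10.4 CPM in fibroblast-gated cells (1.13 and 1.66). Kcnd3, an A-type channel subunit, stood at 14.1 and 9.91 CPM against 4.0 and 4.12 CPM. Kcnip3, a calcium-binding partner of A-type channels also known as the repressor DREAM, had 15.1 and 31.7 CPM against 4.35 and 7.68 CPM.

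Kcnj8, the pore of vascular and smooth muscle ATP-sensitive channels, stood at 39.8 and 34.9 CPM in smooth muscle-gated cells against 9.99 and 9.64 CPM, with log2 ratios of 1.89 and 1.75. Its regulatory partner Abcc9, the sulfonylurea receptor of this channel, was also higher, at 49.3 and 57.1 CPM against 21.3 and 20.8 CPM (1.18 and 1.41). Pore and regulatory subunit were thus both higher in the same class. Kcnk3, an acid-sensitive leak channel, stood at 19.6 and 41.6 CPM against 0.92 and 3.39 CPM (3.43 and 3.28). Smooth muscle-gated cells held Kit at 8.55 CPM in ff and at 0 UMIs in GF (up to 1.19 CPM). They held Rgs5, a pericyte marker that was high in Cajal-like cells too, at 268 and 1378 CPM. The part of cells with either marker in the Kcnj8, Abcc9 and Kcnk3 levels was not tested. Endothelial-gated cells, outside the mesenchymal classes, held Kcnj8 at 52.8 (ff) and 47.9 (GF) CPM.

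The genes lower in smooth muscle-gated cells included the most abundant pair of the fibroblasts, Kcnk2 and Kcnn3. Kcnk2, a mechanosensitive and lipid-sensitive leak channel, stood at 12.6 and 9.91 CPM in smooth muscle-gated cells and 57.8 and 63.9 CPM in fibroblast-gated cells (log2 ratios -2.11 and -2.57). Kcnt2, a sodium-activated channel, had 2.52 and 0.79 CPM from 5 and 2 UMIs, against 15.5 and 10.5 CPM (-2.23 and -2.69). Kcnn3 had 24.2 and 13.1 CPM from 48 and 33 UMIs, against 49.4 and 43.4 CPM (-1.0 and -1.66). In the smooth muscle cluster led by Actg2 (clusters are described below) it had 7.01 and 4.73 CPM from 12 and 11 UMIs. For Kcnk5 and Kcnk6, leak channels that respond to external pH or sit in endosomes, the smooth muscle-gated cells held 1 to 5 UMIs per library. With called doublets kept, 2 of the 5, Kcnk5 and Kcnt2, stayed 2-fold lower in both libraries (2.78% of all genes were lower). The ff ratio of Kcnn3 became -0.27. Over all alternatives this Kcnn3 ratio ran from -2.67 to -0.27.

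**Figure D2:**
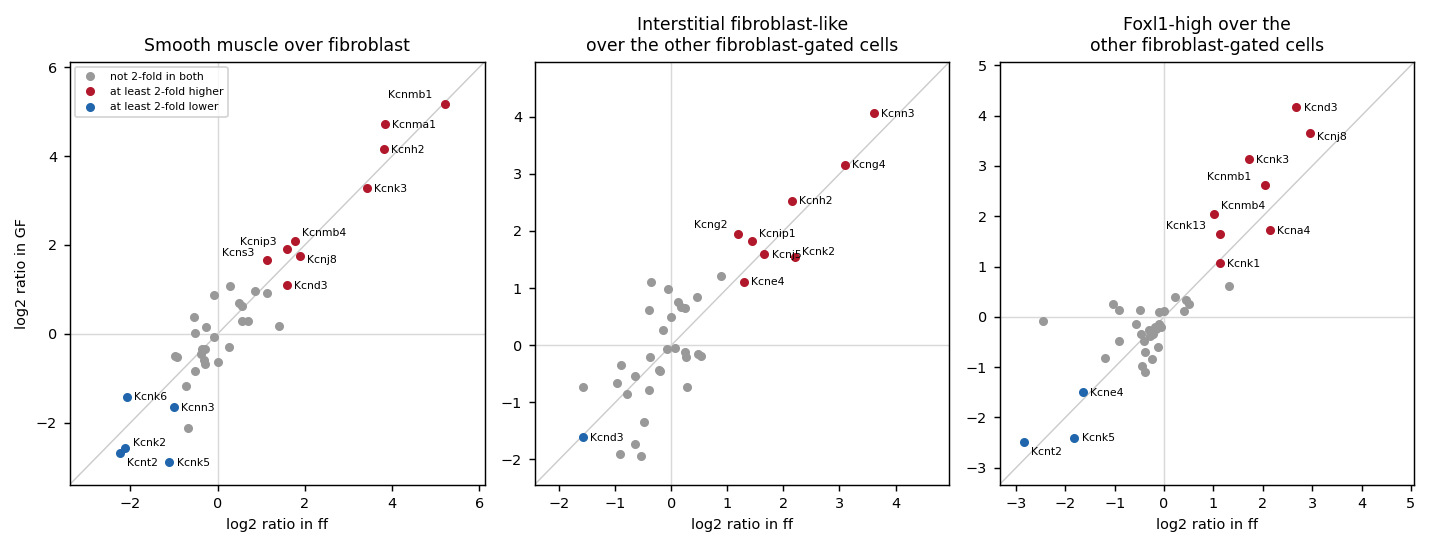
Log2 ratio of 39 of the 42 genes in ff (horizontal axis) and GF (vertical axis) for 3 class comparisons; red and blue dots are at least 2-fold higher or lower in both libraries, and the diagonal marks equal ratios. Kcnmb1 lies furthest up the smooth muscle panel (5.22 and 5.18), Kcnn3 up the interstitial panel (3.61 and 4.06) and Kcnj8 and Kcnd3 up the Foxl1-high panel.

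Other genes of membrane excitability were counted in the same way in smooth muscle-gated cells. The lists held genes of calcium entry, pumps, chloride channels, nerve input receptors and gap junctions. Of all genes measured, 4.2% were higher and 4.18% lower. Of 27 measured calcium entry and release genes, 7 were higher and 2 lower, among them the L-type channel Cacna1c at 33.7 and 32.5 CPM against 2.60 and 1.81 CPM, the T-type channel Cacna1h and the receptor-operated channel Trpc6. Of 20 sodium pump and cotransporter genes 1 was higher (Slc12a2) and 1 lower. Of 16 chloride and HCN channel genes 0 were higher and 2 lower, of 26 purine and nerve input receptor genes 2 were higher and 3 lower, and of 4 gap junction genes 1 was higher (Gjc1) and 2 lower (Gja1 and Panx1).

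Interstitial fibroblast-like cells were compared with all other fibroblast-gated cells. Of the 42 genes 9 were higher in both libraries (2.47% of all genes were) and 1, Kcnd3, was lower (1.89% of all genes). They included Kcnn3, Kcnk2, the silent subunits Kcng4 and Kcng2, the ERG channel Kcnh2, the inward rectifier Kcnj5 and the accessory subunits Kcne4 and Kcnip1. The median log2 ratio of the 42 genes was -0.04 in ff and -0.10 in GF, beside -0.02 and 0.00 over all genes.

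Kcnn3, the SK3 channel that calcium opens after purine signalling (chr3:89520164-89675132), stood at 423 CPM (interval 403 to 443) for ff and 487 CPM (461 to 513) for GF. In the other fibroblast-gated cells it stood at 33.7 and 28.2 CPM, for log2 ratios of 3.61 and 4.06. Both libraries put it more than 10 times above the rest. Thinned to equal depth, 44.0% of ff and 53.7% of GF interstitial fibroblast-like cells held a Kcnn3 UMI (68.0% and 74.7% unthinned, median depths 8925 and 7205 UMIs), against 0% and 0.115% of lymphocytes. The purine receptor P2ry1, at 253 and 216 CPM in the same cells, is one of the gate's own markers, so the selection fixes its level. The Cajal cell markers were near 0 there, Ano1 with 4 and 2 UMIs and Kit with 0 and 1.

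Kcnk2 (chr1:189207930-189402273) stood at 236 CPM (222 to 251) in ff and 177 CPM (162 to 194) in GF, against 50.3 and 60.0 CPM in the other fibroblast-gated cells (log2 ratios 2.21 and 1.55). The silent subunit Kcng4, which joins Kv2 subunits and changes their gating, stood at 19.9 and 29.6 CPM against 1.45 and 2.42 CPM (3.09 and 3.16). Silent subunits did not go together, since Kcns3 had only 7.81 and 2.12 CPM there against 15.6 and 10.6 CPM. Kcng2 had 9 and 14 UMIs, or 2.13 and 4.94 CPM. With a stricter cell filter 5 of the 9 genes, among them Kcng4, Kcnh2, Kcnk2 and Kcnn3, were 2-fold higher in both libraries (1.98% of all genes). The ratios of Kcnn3 were then 3.43 and 3.49. Kcnk2 was not confined to interstitial fibroblast-like cells. Among the clusters described below it was highest in that led by Col6a5, at 219 (ff) and 216 (GF) CPM. In that cluster 70.6% of cells met no subtype gate.

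Kcnh2 had 11.4 and 12.3 CPM in interstitial fibroblast-like cells against 1.78 and 1.31 CPM. Kcnj5, a G protein-gated inward rectifier, had 4.73 and 4.58 CPM from 20 and 13 UMIs, against 0.82 and 0.85 CPM (1.66 and 1.60). Kcne4, an accessory subunit that dampens several voltage-gated channels, stood at 18.0 and 34.9 CPM against 6.73 and 15.6 CPM. These levels are well below that of Kcnn3, and Kcnj5 rests on few UMIs. Kcnj8 differed between the libraries, at 7.57 CPM (5.18 to 10.7) in ff and 21.2 CPM (16.1 to 27.2) in GF, and its partner Abcc9 stood at 90.4 and 150 CPM, against 18.4 and 16.4 CPM in the other fibroblast-gated cells. Kcnd3, the gene that was lower, had 3 and 2 UMIs (0.71 CPM in each library) against 4.14 and 4.23 CPM. That reference includes the Foxl1-high cells, at 13.7 and 32.5 CPM; all fibroblast-gated cells outside the Foxl1-high class held 1.30 and 0.86 CPM. Kcnk3 was at 1 UMI in each library.

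**Figure D3:**
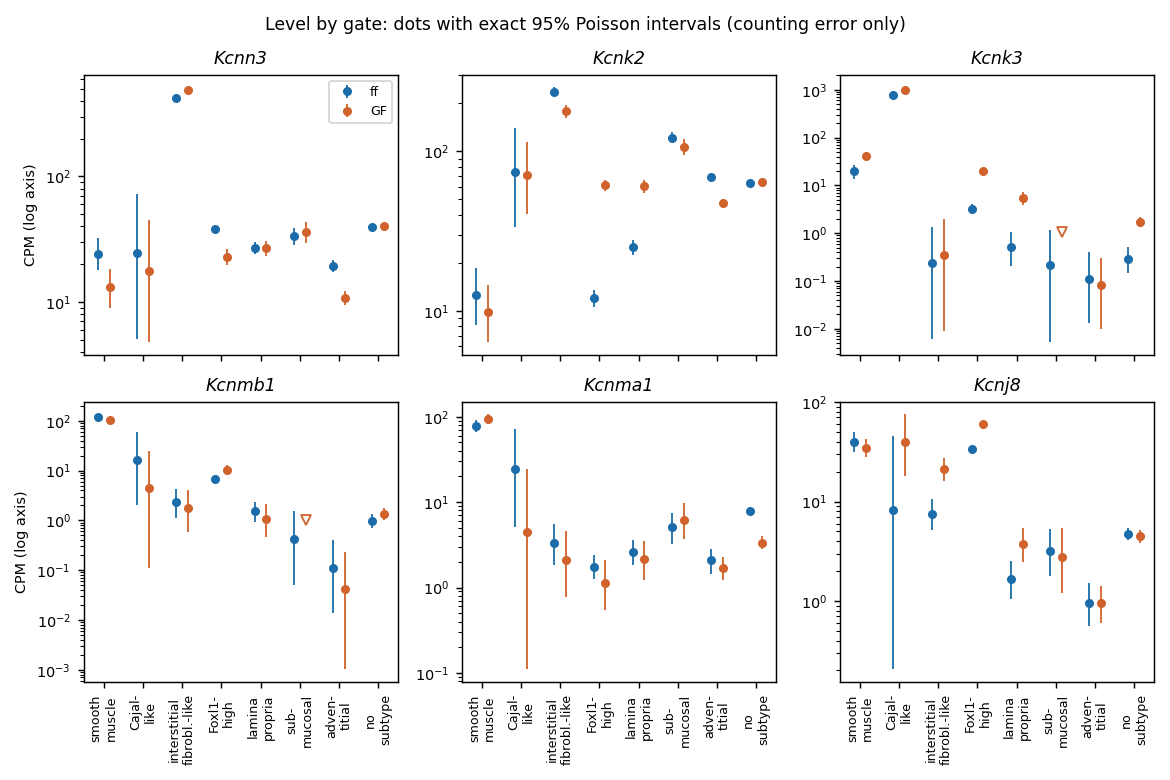
Level in CPM (log axis) of 6 genes in the 8 mesenchymal classes; blue is ff, orange is GF, bars are exact 95% Poisson intervals and an open triangle marks the limit of 3 counts where no UMI was seen. Kcnn3 and Kcnk2 peak in interstitial fibroblast-like cells, Kcnk3 in Cajal-like cells at 780 and 992 CPM, and Kcnj8 is high in both smooth muscle-gated and Foxl1-high cells.

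Among the other lists in interstitial fibroblast-like cells, 6 of 26 purine and nerve input receptors were higher and 1 lower, but P2ry1 and Adra1a are gate markers; the adenosine receptor Adora1, which is not, had 49.9 and 78.3 CPM against 1.49 and 5.12 CPM. Of 27 calcium genes 3 were higher and 1 lower: Cacna1g is a gate marker, the calcium release channel Itpr1 stood at 164 and 181 CPM against 42.5 and 36.1 CPM, and the L-type channel Cacna1d at 116 and 111 CPM against 38.5 and 32.7 CPM. Of 20 pump and cotransport genes 4 were higher and 0 lower, including the sodium pump modulator Fxyd6 at 372 and 618 CPM against 49.3 and 51.2 CPM and the cotransporter Slc12a2. Of 16 chloride and HCN channel genes 1 was higher and 1 lower, and of 4 gap junction genes 0 were higher and 1, Gja1, was lower. Of all genes measured, 2.47% were higher and 1.89% lower.

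The Cajal-like cells were few, 11 in ff and 28 in GF, and their values are given as description. Kcnk3 (chr5:30588170-30625271) stood at 780 CPM (631 to 953, 95 UMIs) for ff and 992 CPM (867 to 1131, 225 UMIs) for GF. The next highest class, smooth muscle-gated cells, had 19.6 and 41.6 CPM, and interstitial fibroblast-like cells 0.24 and 0.35 CPM. Kcnk3 led the Cajal-like cells and Kcnn3 the interstitial fibroblast-like cells: Cajal-like cells held 3 and 4 UMIs of Kcnn3, or 24.6 and 17.6 CPM. After thinning, a Kcnk3 UMI was seen in 63.6% of ff and 60.7% of GF Cajal-like cells (72.7% and 78.6% unthinned) and in 0% and 0.115% of lymphocytes. Kcnh2 had 41.0 and 83.8 CPM from 5 and 19 UMIs, Kcng4 49.3 and 39.7 CPM from 6 and 9 UMIs, and Kcnip1 32.8 and 30.9 CPM from 4 and 7 UMIs. Rgs5, a marker of pericytes, stood at 1469.5 and 2024 CPM in the same cells, and its part in these levels was not tested.

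Foxl1-high cells lie under the epithelium and are the cells of the series title. Against all other fibroblast-gated cells, 8 of the 42 genes were higher in both libraries (3.6% of all genes were) and 4 lower (4.47% of all genes). The higher genes were Kcnj8, Kcnd3, Kcnk3, Kcnmb1, Kcnmb4, Kcna4, Kcnk1 and Kcnk13; the lower included Kcnt2, Kcnk5 and Kcne4. The median of the 42 genes was -0.21 in ff and -0.14 in GF, beside 0.06 and 0.13 over all genes. Scaling by the median of ratios moved the GF median of all genes from 0.13 to -0.04 and that of the 42 genes to -0.23.

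Kcnj8 (chr6:142564837-142571614) stood at 33.6 CPM (31.3 to 36.1) for ff and 60.2 CPM (55.2 to 65.6) for GF, against 3.46 and 3.83 CPM in the other fibroblast-gated cells (log2 ratios 2.96 and 3.66). Its partner Abcc9 had 43.0 and 63.4 CPM against 15.3 and 15.9 CPM, so both subunits of the ATP-sensitive channel were higher in Foxl1-high cells in both libraries. Kcnd3 (chr3:105452330-105674002) stood at 13.7 CPM (12.3 to 15.4) and 32.5 CPM (28.9 to 36.5) against 1.30 and 0.86 CPM (2.68 and 4.17). Kcna4, a fast-inactivating voltage-gated subunit, was low at 3.66 and 2.39 CPM, but the lamina propria, submucosal, adventitial and interstitial fibroblast-like classes held 0 UMIs of it in both libraries. Kcnk1 and Kcnk13, with 28 and 12 and with 29 and 22 UMIs, were at 1.23 to 2.5 CPM.

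The 9 smooth muscle markers summed to 1742 and 1940 CPM in Foxl1-high cells, where 9 (ff) and 8 (GF) of them had a UMI, beside 19729.5 and 22487 CPM in smooth muscle-gated cells and between 89.9 and 288 CPM in the other 5 fibroblast classes. Kcnmb1 stood at 6.92 and 10.5 CPM in Foxl1-high cells against 0.91 and 0.87 CPM in the other fibroblast-gated cells (2.05 and 2.61). The pore subunit Kcnma1 did not go with it, at 1.76 and 1.14 CPM against 5.35 and 2.76 CPM. Kcnk3 stood at 3.22 and 20.5 CPM against 0.28 and 1.43 CPM. Whether smooth muscle RNA has a part in the Kcnmb1 level was not tested.

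Among the lower genes, Kcnt2 stood at 1.85 and 1.25 CPM against 19.3 and 11.6 CPM (log2 ratios -2.83 and -2.49), Kcnk5 at 1.54 and 1.14 CPM against 7.96 and 10.3 CPM, and Kcne4 at 2.07 and 5.57 CPM against 8.60 and 17.5 CPM. Among the mesenchymal classes, Kcnt2 and Kcnk5 were instead highest in adventitial cells, at 24.3 and 15.4 CPM and at 18.3 and 21.8 CPM. Endothelial-gated cells, outside these classes, held Kcnk5 at 44.3 (ff, 21 UMIs) and 29.7 (GF, 13 UMIs) CPM. Kcnk2 was lower in ff only: 12.03 CPM against 70.5 CPM in ff (-2.46), but 61.0 against 64.2 CPM in GF (-0.07). Of the other lists, 4 of 9 channel partner genes were higher and 0 lower, with the BK accessory protein Lrrc55 at 18.7 and 40.8 CPM against 1.45 and 2.52 CPM. Of 27 calcium genes 6 were higher and 2 lower. Of 4 gap junction genes 1, Gja1, was higher (677 and 793 CPM against 183 and 178 CPM) and 1 lower. Of all genes measured, 3.6% were higher and 4.47% lower.

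Clusters of the same cells, built without any Kcn gene, divided the fibroblasts more finely than the classes. Over the 16 mesenchymal clusters to which each library gave 50 or more cells, Kcnk2 ranged from 1.44 to 219 CPM in ff and from 2.33 to 216 CPM in GF. It was highest in the cluster led by Col6a5 and lowest in that led by Cck in both libraries. Kcnn3 had 1 dominant cluster, led by Ptn, with 310 (ff) and 272 (GF) CPM, and no other of these clusters passed 57.0 CPM. In the Ptn-led cluster 41.4% of cells met no subtype gate and so belong to the reference of the interstitial comparison. Endothelial-gated cells, outside these clusters, held Kcnn3 at 99.2 (ff, 47 UMIs) and 59.4 (GF, 26 UMIs) CPM. Kcnk5 was highest in the cluster led by Smpd3, at 32.6 and 35.6 CPM. Kcns3 differed between the clusters that hold the Foxl1-high cells: the cluster led by Wif1 had 1.33 (ff) and 1.69 (GF) CPM, and that led by Ptprr 19.7 and 12.8 CPM. Kcnj8 had the opposite order, with 54.1 and 81.6 CPM in the Wif1-led and 19.3 and 46.6 CPM in the Ptprr-led cluster.

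**Figure D4:**
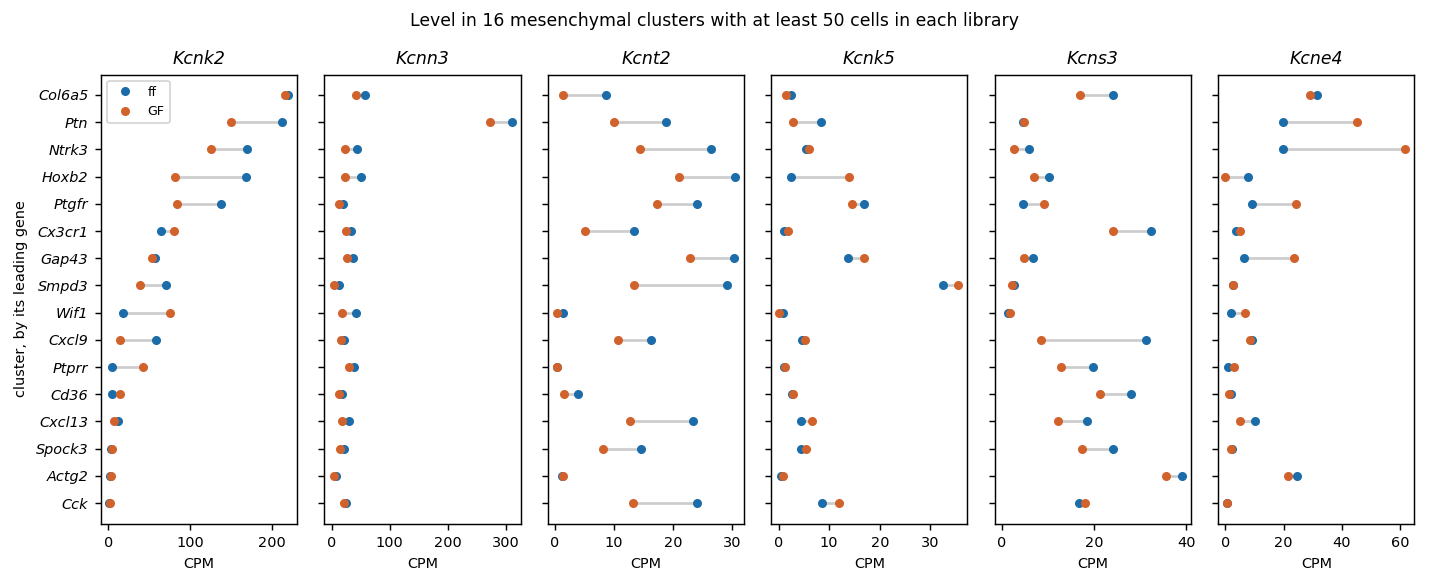
Level in CPM of 6 genes in 16 mesenchymal clusters, each named by its leading gene and ordered by Kcnk2; blue dots are ff and orange dots GF, joined by a grey line. Kcnk2 spans 1.44 to 219 CPM in ff, Kcnn3 stands out in the Ptn-led cluster and Kcnk5 in the Smpd3-led cluster in both libraries.

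GF and ff were set side by side within classes, since their cell makeup differs. Over all fibroblast-gated cells, 2 of the 42 genes were at least 2-fold higher in GF (1.25% of all genes were) and 1 lower (1.57% of all genes). Kcne4 stood at 7.18 (ff) and 16.3 (GF) CPM (log2 ratio 1.08), and Kcnk3 at 0.92 and 3.39 CPM (1.20). Kcnb2, a Kv2 pore subunit, stood at 3.29 (ff) and 0.63 (GF) CPM (-1.40). Kcnk2 had 57.8 and 63.9 CPM, Kcnn3 49.4 and 43.4 CPM and Kcnj8 9.99 and 9.64 CPM. Kcns3 (15.3 and 10.4 CPM), Kcnt2 (15.5 and 10.5 CPM) and Kcnma1 (4.57 and 2.60 CPM) were lower in GF by less than 2-fold. The median over the 42 genes was 0.03, beside 0.01 over all genes. With GF clusters weighted by their ff shares, chosen after the data were seen, the ratio of Kcne4 was 0.70 and that of Kcnk3 1.81. Thinned to equal depth, the ratio of Kcnk3 was 0.94.

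Directions were also counted over the 6 fibroblast classes and the 16 clusters. These all come from the same 2 libraries, so the counts are no replicate check, and no share over all genes stands beside them. Kcne4 and Kcnmb4 were higher in GF in 6 of 6 classes but in 8 and 11 of 16 clusters. Kcne4 stood at 4.14 and 8.26 CPM in lamina propria cells and at 9.94 and 44.9 CPM in submucosal cells. The submucosal GF level came from 130 UMIs in 11.6% of 405 cells. Kcnb2, Kcns3 and Kcnt2 were higher in GF in 0 of 6 classes. Kcnn3 was higher in GF in 0 of 16 clusters, while the summed fibroblast levels were within 2-fold and the interstitial gate gave 423 (ff) and 487 (GF) CPM. Kcnip3 was higher in GF in 14 of 16 clusters and in smooth muscle-gated cells, at 15.1 and 31.7 CPM.

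In Foxl1-high cells 5 of the 42 genes were at least 2-fold higher in GF (2.17% of all genes were) and 0 lower (2.38% of all genes). Kcnk2 stood at 12.03 CPM (10.6 to 13.5) for ff and 61.0 CPM (56.0 to 66.4) for GF, a log2 ratio of 2.25. Kcnk3 stood at 3.22 CPM (2.52 to 4.04) and 20.5 CPM (17.6 to 23.7), a ratio of 2.35. These intervals cover counting error only. GF was higher in both clusters of these cells, which come from the same 2 libraries and so are no second check. Kcnk2 had 18.4 and 75.2 CPM in the Wif1-led and 5.08 and 41.9 CPM in the Ptprr-led cluster. Kcnk3 had 2.12 and 15.6 CPM in the Wif1-led and 6.87 and 41.5 CPM in the Ptprr-led cluster. Kcnd3, Kcne4 and Kcnmb4 had ratios of 1.18, 1.1 and 1.39. The share of Foxl1-high cells with a Kcnk2 UMI after thinning was 2.44% (ff) and 12.01% (GF), or 8.28% and 29.7% unthinned, and lymphocytes had 0% in both libraries. Foxl1 itself stood at 49.96 and 83.4 CPM in these cells, and its part in the difference was not tested.

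In lamina propria cells 4 genes were higher in GF (2.75% of all genes) and 3 lower (2.29%), again with Kcnk2 (25.1 and 60.4 CPM) and Kcnk3 (0.51 and 5.33 CPM) among the higher. In submucosal cells 3 were higher in GF (2.26%) and 2 lower (4.45%), in adventitial cells 0 (1.3%) and 1 (1.74%), and in fibroblasts without a subtype 1 (1.37%) and 2 (1.47%). In adventitial and submucosal cells Kcnk2 was lower in GF, with 68.9 and 47.6 CPM in the first and 122 and 106 CPM in the second. In interstitial fibroblast-like cells 2 genes were higher in GF (3% of all genes) and 3 lower (3.94%), the lower including Kcns3 and Kcnt2. In smooth muscle-gated cells 3 were higher in GF (5.41%) and 2 lower (4.49%), shares close to those of all genes, and Rgs5 stood at 268 (ff) and 1378 (GF) CPM in these cells. In the Cajal-like cells 11 genes were higher in GF (21.9% of all genes) and 5 lower (10.9%), on few UMIs. The main muscle genes were within 2-fold in smooth muscle-gated cells, at 119 and 103 CPM for Kcnmb1 and 43.3 and 46.8 CPM for Kcnh2.

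**Figure D5:**
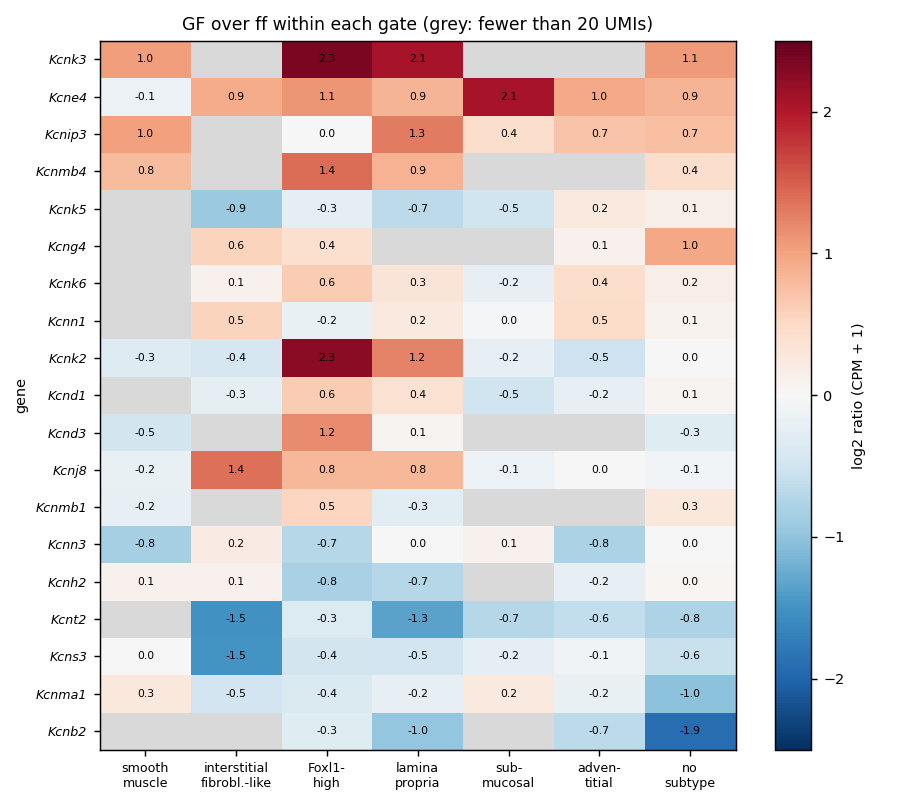
Log2 ratio of GF over ff after adding 1 CPM for 19 genes with at least 200 UMIs in fibroblast-gated cells (rows) in 7 classes (columns); red is higher in GF, blue is lower, and grey marks fewer than 20 UMIs. Kcnk3 and Kcnk2 are red in Foxl1-high and lamina propria cells, and Kcnt2 and Kcns3 are blue in most classes.

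The genes named next, apart from Kcnn1 and Kcnd1, were near the floor in mesenchymal cells. Kcna1, Kcna2 and Kcna6, Kv1 pore subunits, were at most 2.39 CPM in every mesenchymal class. Kcnn4 was at most 0.71 CPM in the mesenchymal classes and 69.9 and 29.4 CPM in lymphocytes. Kcnj2 and Kcnj13, inward rectifiers, and the subunits Kcnh3 and Kcnu1 were at most 2.13 CPM outside Cajal-like cells, and Kcnab1, Kcnab2 and Kcnab3, beta subunits of Kv1 channels, at most 1.98 CPM outside Cajal-like cells. Kcnn1, an SK subunit, was evenly spread, from 1.98 to 6.35 CPM outside Cajal-like cells, and Kcnd1, an A-type subunit, from 2.82 to 6.83 CPM.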

How the data were processed

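The deposited tables hold whole-number UMI counts per gene and cell barcode, made by the authors with Cell Ranger 6.0.0 and mm10 per the submitters' processing notes; the annotation release and the strand setting are not given in the sources used here. Symbols were matched for 32158 of 32285 gene IDs and coordinates taken from GENCODE vM21. Cells were kept from 500 genes and 1000 UMIs upward, with a mitochondrial share of 10% or less, and 538 ff and 767 GF doublets called by Scrublet (scanpy 1.11.5) were removed. A cell joined a class when it held a UMI of enough markers: 5 of 7 for fibroblasts, then 7 of 13 for Foxl1-high, 2 of 5 for interstitial fibroblast-like, 5 of 8 for lamina propria, 4 of 6 for submucosal and 6 of 7 for adventitial cells, and 6 of 9 for smooth muscle and 4 of 5 for Cajal-like cells. These thresholds were set after the data were seen, and the genes, lists and comparisons were chosen with earlier results of these data known. UMIs were summed per class and library and given as CPM with exact 95% Poisson intervals (scipy 1.17.1); a count of 0 allows 3 counts. Log2 ratios used a pseudocount of 1 CPM, and 2-fold is a size rule, not a test. Shares of cells were also taken after thinning each cell to 2000 UMIs. Clusters came from leidenalg 0.10.2 under Python 3.11.15. The ratio code was tested on simulated data. Genes named with values were the 6 most abundant per class, up to 6 in each direction per comparison above a UMI minimum, and up to 3 per other list; further members were named after their values were seen. Values of 3 of the 42 genes, which the counts include, are not reported here.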

Additional observations from a re-analysis of the deposited data

Results flagged for a closer look

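Among cells outside the mesenchymal classes, Kcna1, Kcna2 and Kcna6 in glial-gated cells and Kcng2 in endothelial-gated GF cells stood far above their mesenchymal levels. Lymphocytes held Kcnn4 at 69.9 (ff) and 29.4 (GF) CPM and Kcnab2 at 12.7 and 18.2 CPM, also above the mesenchymal classes. In glial-gated cells, 4 in ff and 14 in GF, Kcna1 stood at 965 and 1334 CPM (16 and 76 UMIs), Kcna2 at 724 and 895 CPM (12 and 51 UMIs) and Kcna6 at 60.3 and 351 CPM (1 and 20 UMIs). The highest mesenchymal class outside Cajal-like cells had 0.120, 1.19 and 2.39 CPM of these Kv1 pore subunits. Kcng2, a silent voltage-gated subunit, stood at 0 CPM in the 69 endothelial-gated cells of ff and at 110 CPM (48 UMIs) in the 73 of GF, while its highest mesenchymal level was 4.94 CPM. With 1 library per group and few cells these values were not tested.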

How the results depend on the processing

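No paired analysis was possible because each group has 1 library. The processing was varied in 11 alternatives, of which 2 were chosen after seeing the data. Among the named genes whose values are reported, 59 of 59 ratios of at least 2-fold kept their sign. Most of these genes were named for large ratios, and some alternatives, such as another pseudocount, cannot change a sign. The count is therefore a weak check. The sizes of these ratios were less stable, and some fell below 2-fold. For example, the ff ratio of Kcnn3 in smooth muscle-gated cells ran from -2.67 to -0.27. That of Kcnd3 in interstitial fibroblast-like cells of ff ran from -2.39 to -0.68. The count of 10 genes higher in smooth muscle-gated cells stayed within 1.5 times. Shares of all genes are given in brackets. A pseudocount of 5 CPM gave 2 lower (2.36%) in smooth muscle-gated cells and 5 higher (1.35%) and 0 lower (0.997%) in interstitial fibroblast-like cells. It gave 3 higher (2.26%) and 1 lower (2.43%) in Foxl1-high cells, and 0 higher (0.466%) and 0 lower (0.607%) in GF. A pseudocount of 0.1 CPM gave 13 lower (9.44%) in smooth muscle-gated, 7 (5.28%) in interstitial fibroblast-like and 8 (7.48%) in Foxl1-high cells. In GF it gave 2 lower (4.28%), close to the share of all genes. Keeping doublets gave 2 lower (2.78%) in smooth muscle-gated cells and 1 higher (1.25%) in GF. Interstitial fibroblast-like cells had 3 lower genes (2.99%) after thinning, 3 (2.57%) with classes from clusters and 5 (3.8%) with the gate raised by 1 marker. They had 5 higher genes (1.98%) with the stricter cell filter. Genes with at least 200 UMIs gave 5 higher (3.99%) in Foxl1-high cells. GF had 1 higher gene after thinning (1.24%), with the gate raised by 1 marker (1.25%) and with each GF cluster reweighted to its share in ff (1.27%). The causes were not tested. Depth limits members with few UMIs, for which a single count moves a level.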
